A study of Bos taurus with 56 samples.

Results

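The 7 genes described here were picked as genes with graded differences between muscle of Nguni and of Bonsmara bulls. Each has counts in every bull, though only 1 count in the lowest bull for ENSBTAG00000000905 and ENSBTAG00000017528. The breeds differ in mean level, but their ranges overlap on at least 1 diet for all members but ENSBTAG00000038439. The 7 genes are ENSBTAG00000038439, ENSBTAG00000002858, ENSBTAG00000000905, ENSBTAG00000023823, ENSBTAG00000017661, ENSBTAG00000006896 and ENSBTAG00000017528, 7 of the 20791 Ensembl cattle genes listed, and all 7 were among the 13219 with enough counts to test. They were chosen by their measured difference between the breeds: 3 for breed on the high energy diet or averaged over diets, and 4 for breed on the low energy diet. Differences between breeds in those same contrasts are therefore given as a description, with no test. The files do not pair these IDs with names, and the cattle gene table used here matched 0 of them, so nothing is said of what the genes do, and the muscle could not be checked against marker genes.

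The Longissimus dorsi runs along the back and is the muscle of the loin and rib cuts. Its RNA comes mainly from large multinucleated fibres, with a share from fat cells, vessels, connective tissue and blood, so in whole muscle a lower level can mean fewer cells of a type or less RNA per cell, and these cannot be told apart. Nguni are a Sanga breed, an old group of cattle of southern Africa, and Bonsmara are labelled as related to Sanga. Bulls of both breeds were fed in a feedlot for 120 days with a diet of 12.0 MJ (high energy) or 10.9 MJ (low energy) of metabolizable energy per kg. The sources used here do not give the bulls' ages.

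Counts were analysed for 5 Nguni and 3 Bonsmara on high energy and for 3 Nguni and 3 Bonsmara on low energy. Each bull is a title stem, the first part of the sample titles (N35, B6), with 3 libraries per stem, 42 in all. The labels do not say that a stem is an animal. If it is not, the spread behind every p-value may be technical. A level is given in CPM, counts scaled to a common library total, and the level of a stem comes from the summed counts of its libraries. Libraries held 8156040 to 78224599 counts. B6_1 alone held 76.9% of the counts of B6. Over all tested genes N008_3 and N215_2 correlated with the other libraries of their stems at r = 0.904 to 0.910 and 0.893 to 0.898, while libraries of 1 stem among the other 12 stems did so at 0.913 to 0.989. N008_3 and N215_2 are called the libraries that stand apart, and values without them are given where they change a result. The stems N1 and N11 were placed by their labels, on low and high energy, while the deposited tables group them the other way round.

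The clearest separation was that of ENSBTAG00000038439, an abundant transcript above 92.0% of tested genes in mean level, which was lower in Nguni on both diets. On high energy the 5 Nguni stood at 46.4 (N14), 47.1 (N008), 49.5 (N11), 54.7 (N35) and 56.1 CPM (N37), and the 3 Bonsmara at 70.9 (B6), 76.5 (B25) and 81.3 CPM (B199). On low energy the 3 Nguni stood at 49.7 (N1), 51.9 (N33) and 66.9 CPM (N215), and the 3 Bonsmara at 84.2 (B126), 84.6 (B51) and 87.9 CPM (B11). The breeds did not overlap on either diet, and the highest Nguni, N215, lay just below the lowest Bonsmara, B6. Means were 50.8 ± 4.39 (SD, n = 5) against 76.2 ± 5.22 CPM (n = 3) on high energy and 56.2 ± 9.37 against 85.6 ± 2.04 CPM (n = 3 each) on low energy, a ratio of Nguni to Bonsmara of 0.666 and 0.657. This was the member whose breed difference moved least between the diets, with log2 fold changes of -0.59 (SE 0.16) and -0.61 (SE 0.18), Nguni over Bonsmara.

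Over both diets together, ENSBTAG00000038439 was 1 of the 7 members whose breeds did not overlap, against 0.151% of all genes tested, and on each diet taken separately it was again 1 of 7, against 0.416%. It was picked for this contrast, so nothing is read from these shares. The gap over both diets closed when the 2 libraries that stand apart were left out together. N215_2 read 51.4 CPM against 69.7 and 83.2 in the other libraries of its stem, and N008_3 read 41.5 against 51.1 and 59.1. Without them N215 stood at 76.0 CPM, above the 68.7 CPM of B6, N008 stood at 55.6 CPM, still below it, and the breeds overlapped over both diets while staying apart on each diet. They also overlapped with plain library totals in place of scaled ones, where Nguni reached 67.9 CPM and the lowest Bonsmara was at 59.2.

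At the level of single libraries of ENSBTAG00000038439 the order was close to complete. On high energy 14 of the 15 Nguni libraries lay below all 9 Bonsmara libraries, the exception being 65.4 CPM in N37 against a lowest Bonsmara library of 61.9. On low energy 8 of the 9 Nguni libraries did, with the exception at 83.2 CPM in N215. Counts per library ran from 322 to 4509. Libraries of 1 stem differed by as little as 1.05-fold (B51) and as much as 1.97-fold (N11, from 31.1 to 61.4 CPM). The SD between libraries of a stem was 0.27 on the log2 scale, and the estimated SD between stems of a group, beyond what their libraries gave, was 0. That estimate was also 0 for 6.11% of all tested genes.

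ENSBTAG00000002858 was higher in Nguni on high energy, unlike ENSBTAG00000038439. The 5 Nguni on high energy stood at 1.04 (N11), 1.14 (N35), 1.62 (N37), 2.44 (N008) and 2.93 CPM (N14), and the 3 Bonsmara at 0.198 (B25), 0.282 (B6) and 0.400 CPM (B199). On low energy the 3 Nguni stood at 1.03 (N215), 2.06 (N1) and 3.18 CPM (N33), and the 3 Bonsmara at 0.481 (B11), 0.834 (B126) and 1.42 CPM (B51). The breeds lay apart on high energy, and on low energy B51 lay above N215, with Nguni higher in 8 of the 9 pairs of stems. Means were 1.84 ± 0.827 against 0.293 ± 0.101 CPM on high energy and 2.09 ± 1.07 against 0.911 ± 0.473 CPM on low energy, a ratio of 6.26 and of 2.30.

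The high energy separation of ENSBTAG00000002858 held library by library. All 15 Nguni libraries, the lowest at 0.811 CPM, lay above all 9 Bonsmara libraries, the highest at 0.685 CPM. This was 1 of the 7 members, and 0.159% of all genes tested had such a gap between single libraries on that diet. The gene was picked by its difference between the breeds, so nothing is read from this share. Behind the gap stood 416 counts in the 5 Nguni and 53 in the 3 Bonsmara. Of the Bonsmara libraries 2, 1 of B25 and 1 of B6, held a single count, so the Bonsmara level is known only roughly. On low energy the single libraries overlapped, from 0.518 to 5.62 CPM in Nguni and from 0.278 to 1.94 CPM in Bonsmara. Without B51 the breeds lay apart on low energy and over both diets, and without N215 on low energy.

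ENSBTAG00000000905 was lower in Nguni, at levels close to the limit of counting. On high energy the 5 Nguni stood at 0.0316 (N11), 0.0857 (N35), 0.109 (N008), 0.128 (N14) and 0.192 CPM (N37), from 1 to 7 counts each. The 3 Bonsmara on that diet stood at 0.595 (B25), 1.32 (B6) and 1.37 CPM (B199), from 30 to 112 counts. On low energy the 3 Nguni stood at 0.175 (N33), 0.208 (N1) and 0.457 CPM (N215), and the 3 Bonsmara at 0.203 (B126), 0.651 (B51) and 0.769 CPM (B11). The breeds lay apart on high energy, with means of 0.110 ± 0.0589 in Nguni against 1.09 ± 0.432 CPM in Bonsmara. They overlapped on low energy, where B126 stood below N1 and N215, and without B126 they lay apart on low energy and over both diets.

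Libraries were even in 4 of the 6 Bonsmara for ENSBTAG00000000905, from 1.06 to 1.55 CPM in B199, 0.482 to 0.651 in B25, 0.572 to 0.690 in B51 and 0.163 to 0.246 in B126. In B6, B6_1 read 1.45 CPM (100 counts) and B6_3 read 1.99 (12 counts), while B6_2 had 0 counts, which allows up to 0.228 CPM (3 counts). In B11, 22 of the 24 counts came from B11_2 at 1.88 CPM, while B11_1 had 0 counts, which allows up to 0.319 CPM, and B11_3 stood at 0.185 CPM. The B11 value on low energy is therefore that of 1 library. Of the 42 libraries 7 had 0 counts, 4 of them in Nguni on high energy. These limits, and all others given for counts, cover counting error only. The SD between libraries of a stem was 0.94 on the log2 scale, the highest among the 7 members, and the estimated SD between stems was 0.

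**Figure D1:**
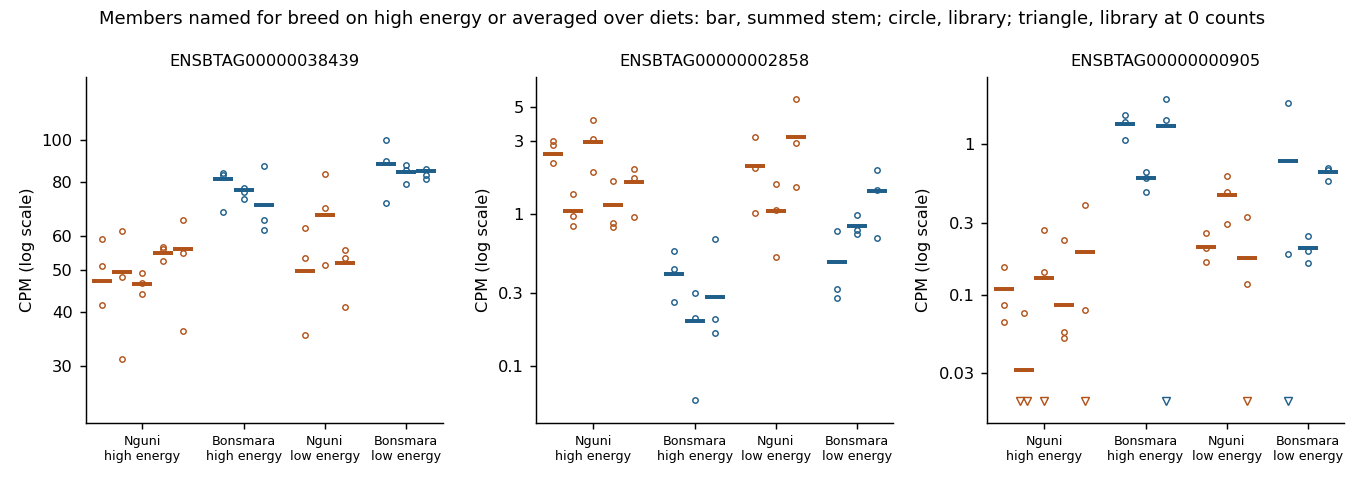
Level of the 3 genes named for breed on high energy or averaged over diets, in CPM on a log scale, by group; bars are the summed stems, circles their single libraries, orange Nguni, blue Bonsmara, and triangles at the foot are libraries with 0 counts, placed there and not to scale. Bars of the breeds do not overlap on high energy in any of the 3 panels, and on low energy they lie apart for ENSBTAG00000038439 alone.

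Of the 4 genes named for breed on low energy, 2 were higher in Nguni on that diet. ENSBTAG00000023823 stood at 19.3 (N1), 22.1 (N215) and 60.9 CPM (N33) in Nguni on low energy and at 7.08 (B11), 8.60 (B126) and 11.6 CPM (B51) in Bonsmara. On high energy the 5 Nguni stood at 10.7 (N37), 12.6 (N14), 21.4 (N11), 26.9 (N008) and 36.2 CPM (N35), and the 3 Bonsmara at 12.0 (B25), 13.4 (B6) and 18.2 CPM (B199). The ranges lay apart on low energy, with N33 far above the rest, and on high energy N37 lay below the 3 Bonsmara, N14 among them and the other 3 Nguni above them.

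Libraries of the same stem differed widely for ENSBTAG00000023823, although each held at least 28 counts. B51 read 4.47, 4.97 and 24.6 CPM, so its stem value of 11.6 CPM was carried by B51_3. N37 read 4.22, 8.53 and 21.9 CPM, N14 read 4.40, 18.3 and 21.1 CPM, and N33 read 35.4, 46.6 and 107 CPM. The ratio of the highest to the lowest library of a stem had a median of 2.63, against 1.37 for ENSBTAG00000038439. The variance of the library counts was 62.7 times what counting error alone gives (chi-square per degree of freedom within stems). That was the highest of the 7 members, in a measure that grows with the counts of a gene. Single libraries of the breeds overlapped on low energy as well, since B51_3 exceeded 3 of the 9 Nguni libraries.

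ENSBTAG00000017661 was high in 2 Nguni on low energy and low in all other stems. On low energy the Nguni stood at 3.88 (N33), 16.9 (N215) and 53.3 CPM (N1), and the Bonsmara at 3.13 (B126), 3.63 (B51) and 4.49 CPM (B11). On high energy the 5 Nguni stood at 2.53 (N35), 3.50 (N008), 5.50 (N11), 5.59 (N14) and 8.55 CPM (N37), and the 3 Bonsmara at 2.70 (B25), 2.84 (B199) and 3.24 CPM (B6). The breeds overlapped on both diets through 1 Nguni each, N33 on low and N35 on high energy. Without N33, or without B11, they lay apart on low energy, and without N35 on high energy.

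The high stems of ENSBTAG00000017661 were high in each of their libraries: 39.1, 53.4 and 70.9 CPM in N1 and 15.5, 17.1 and 18.8 CPM in N215, with at least 209 counts per library. Its libraries therefore followed the stem more than those of any other member, with 0.827 of the log2 variance within groups lying between stems, a share above that of 98.1% of tested genes. N215_2, which stands apart across all genes, gave 15.5 CPM here, the lowest of its stem but close to the other libraries. N1 is 1 of the 2 stems placed differently by the deposited tables. With the tables' placing the log2 fold change between breeds was 1.23 on low energy in place of 2.72, and 2.33 on high energy in place of 0.81 (edgeR adjusted p = 0.474).

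The other 2 genes of this choice were lower in Nguni on low energy. ENSBTAG00000006896 stood at 5.91 (N33), 6.91 (N1) and 9.29 CPM (N215) in Nguni on low energy and at 10.4 (B126), 19.7 (B51) and 20.1 CPM (B11) in Bonsmara. On high energy the 5 Nguni stood close together at 7.62 (N37), 7.85 (N008), 8.18 (N35), 9.12 (N14) and 9.40 CPM (N11), and the 3 Bonsmara at 7.57 (B199), 8.68 (B25) and 14.4 CPM (B6). Ranges lay apart on low energy and overlapped on high energy, where 2 of the 3 Bonsmara lay within or below the Nguni range. B6 was the highest stem on that diet, and its libraries were uneven: B6_2 read 29.8 CPM, and B6_1 and B6_3 read 11.1 and 10.9 CPM. B6_1 and B6_3 lay above the summed levels of the other stems on that diet, but below the single library N14_2 at 11.9 CPM.

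The low energy gap of ENSBTAG00000006896 was narrow, between N215 and B126, and it closed without the libraries that stand apart, where N215 stood at 10.99 CPM and B126 stood at 10.3. N215_2 read 5.99 CPM against 10.2 and 11.8 in the other libraries of its stem. B11 was uneven, at 9.12, 22.5 and 28.6 CPM. The SD was 0.44 between libraries of a stem and 0.26 between stems on the log2 scale.

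ENSBTAG00000017528 had the highest ratio of Bonsmara to Nguni on low energy, 13.1 by group means (3.68 ± 3.73 against 0.281 ± 0.197 CPM). The 3 Nguni stood at 0.159 (N215), 0.175 (N33) and 0.509 CPM (N1), and the 3 Bonsmara at 0.833 (B11), 2.30 (B126) and 7.90 CPM (B51). On high energy the 5 Nguni stood at 0.0214 (N35), 0.146 (N008), 0.321 (N14), 0.385 (N37) and 0.633 CPM (N11), and the 3 Bonsmara at 0.294 (B6), 0.631 (B199) and 0.714 CPM (B25). The breeds lay apart on low energy and overlapped on high energy, and the 3 Bonsmara on low energy lay far apart, with B51 well above the others.

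**Figure D2:**
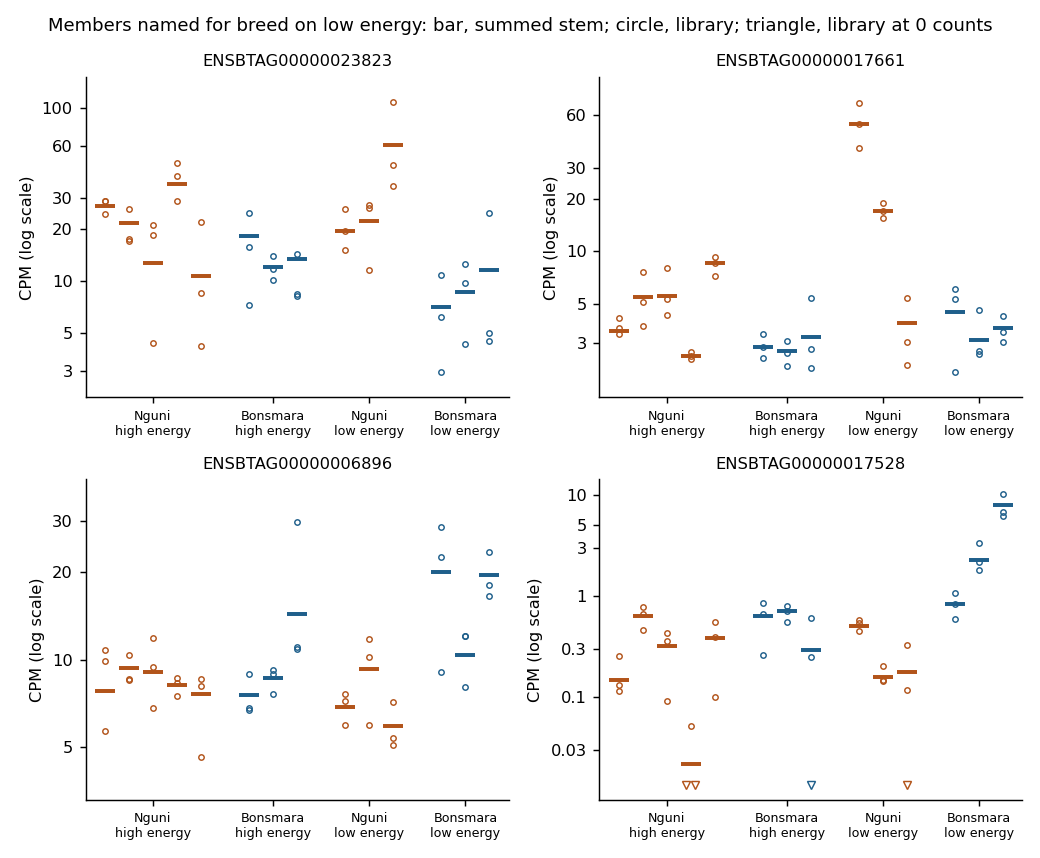
Level of the 4 genes named for breed on low energy, in CPM on a log scale, by group; bars are the summed stems, circles their single libraries, orange Nguni, blue Bonsmara, and triangles at the foot are libraries with 0 counts, placed there and not to scale. The bars lie apart between breeds on low energy in 3 panels and overlap on high energy in all 4, and the circles of B51 in the panel of ENSBTAG00000023823 run from 4.47 to 24.6 CPM.

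For ENSBTAG00000017528 the order on low energy held library by library, by a narrow gap: all 9 Nguni libraries, at most 0.580 CPM, lay below all 9 Bonsmara libraries, at least 0.597 CPM. The libraries on either side of the gap, N1_1 and B11_2, each held 7 counts, so their order rests on library scaling alone. ENSBTAG00000017528 was 1 of the 7 members with such a gap on low energy, which 0.151% of all tested genes had. This contrast chose the gene, so nothing is read from that share. The 3 Bonsmara held 479 counts in all and the 3 Nguni 35. The 3 libraries of B51 read 6.24, 6.74 and 10.2 CPM, so its high level was shared by all of them, and 0.704 of the log2 variance within groups lay between stems. In N35 the stem value rests on 1 count, and N35_1 and N35_3 had 0, which allows up to 0.168 and 0.348 CPM.

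On high energy 3 of the 7 members had breeds that did not overlap, and 6.02% of all tested genes did. They were the 3 chosen on that diet or on the average. On low energy 4 did, where 8.98% of all tested genes did: ENSBTAG00000038439, ENSBTAG00000023823, ENSBTAG00000006896 and ENSBTAG00000017528. The rule used these contrasts, so the shares are given only beside the counts.

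The 4 genes named on low energy were chosen by the difference between the breeds on that diet, so breed was tested on high energy. Full independence of this test from the choice is not secured. The main fit estimates the spread of each gene from the stems of all groups together. The deposited tables place N11, a high energy stem here, on low energy. The members were also chosen with earlier results of these data known. All 4 had the sign they had on low energy, and 0 of the 4 passed at an adjusted p under 0.05 in edgeR, as did 0% of all genes; DESeq2 and limma also called 0 of those members they tested, and of all genes DESeq2 called 27, limma on libraries 44 and limma with quality weights 0. At an unadjusted p under 0.05 in edgeR the count was 0 of 4, against 8.73% of all genes tested. With the tables' placing of N1 and N11 it was 1 of 4, ENSBTAG00000017661 at an edgeR p of 0.0253, beside 1355 of all 13219 genes. That placing moves N1, the highest stem for this gene at 53.3 CPM, to the tested side. By its label N1 is among the low energy stems of the choice, so nothing is read from this p. With the placing by labels, the log2 fold change, Nguni over Bonsmara, was 0.57 (SE 0.43, adjusted p = 0.634) for ENSBTAG00000023823 and 0.81 (SE 0.59, adjusted p = 0.618) for ENSBTAG00000017661. It was -0.28 (SE 0.26, adjusted p = 0.700) for ENSBTAG00000006896 and -0.88 (SE 0.79, adjusted p = 0.680) for ENSBTAG00000017528. Nguni was higher in 10 and 12 of 15 pairs of stems for the first 2 and lower in 8 and 11 of 15 for the others.

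Exact two-sided permutation tests of the mean log2 CPM, over the 56 arrangements of 5 and 3 stems, gave p = 0.393, 0.179, 0.536 and 0.286 in the same order, where 0.0357 is the smallest they can give. These p-values do not show that the breeds were alike. The 95% intervals of the log2 fold change, from the SE with 10 degrees of freedom, were -0.39 to 1.53, -0.50 to 2.12, -0.87 to 0.31 and -2.63 to 0.87. On low energy, the contrast that chose these genes, the values were 1.91 (SE 0.49), 2.72 (SE 0.67), -1.18 (SE 0.30) and -3.69 (SE 0.95), and leaving out 1 bull moved ENSBTAG00000023823 to 1.18 (without N33), ENSBTAG00000017661 to 1.47 (without N1) and ENSBTAG00000017528 to -2.47 (without B51). The difference between the diets was not tested because the choice used 1 side of it. The sign for ENSBTAG00000006896 turned without B6, to 0.073. The median absolute log2 fold change of the 4 genes on high energy was 0.69, and over all tested genes it was 0.32. These medians were not tested. Genes picked by large differences can also be those with a wide spread between bulls, so nothing is read from the medians.

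**Figure D3:**
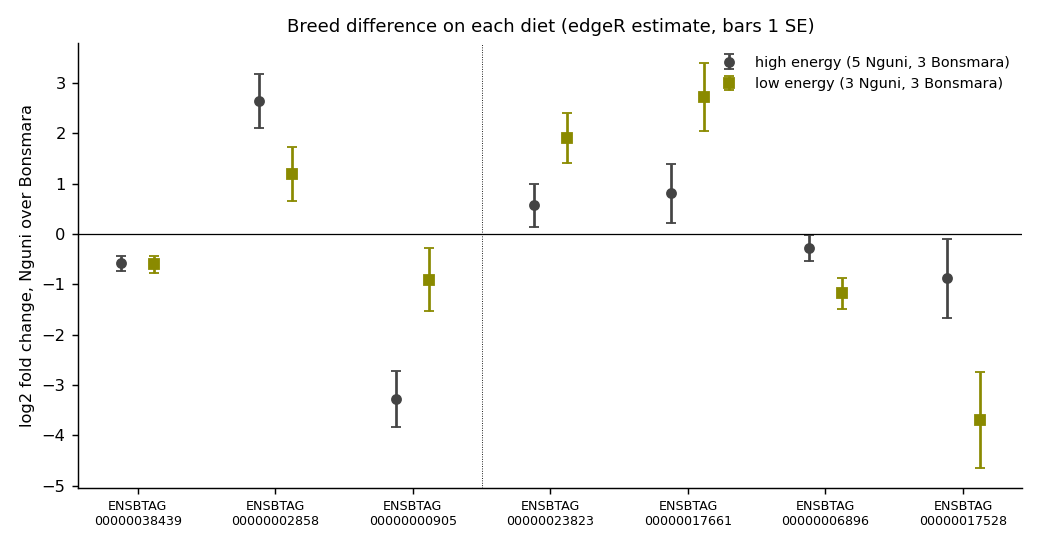
Log2 fold change of Nguni over Bonsmara for each gene on the high energy diet (circles) and the low energy diet (squares), as estimated by edgeR, with bars of 1 SE; the dotted line parts the 3 genes named on high energy or on average from the 4 named on low energy. The 2 estimates of ENSBTAG00000038439 nearly coincide at -0.59 and -0.61. ENSBTAG00000002858 and ENSBTAG00000000905 lie farther from 0 on high energy, and the 4 genes named on low energy lie farther from 0 on that diet. The genes were picked by such differences, so nothing is read from this.

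Diet was compared within each breed and averaged over breeds. Each of these contrasts shares bulls with the breed contrast that chose a gene, so their p-values are no independent test. In edgeR 0 of the 7 members passed at an adjusted p under 0.05 in Bonsmara, in Nguni or averaged over breeds, where 0% of all genes passed in each, and the lowest adjusted p of a member in any of them was 0.888. DESeq2 called 0 members as well, and of all genes it called 2 in Bonsmara, 1 in Nguni and 1 averaged over breeds. Limma called 0 of those members it tested and 0 of all genes in each. At an unadjusted p under 0.05 there were 3 of 7 in Bonsmara, 2 in Nguni and 3 averaged over breeds, against 3.84%, 3.03% and 3.28% of all genes, and nothing is read from these counts. Averaged over breeds the 3 had lower estimates on high energy: ENSBTAG00000017661 at -1.31 (SE 0.43), ENSBTAG00000017528 at -1.35 (SE 0.60) and ENSBTAG00000002858 at -0.91 (SE 0.36), as log2 of high over low energy. That of ENSBTAG00000017661 turned to 0.19 with the tables' placing of N1 and N11, and was -0.69 without N1. That of ENSBTAG00000017528 was -0.73 without B51. Each of these averages lay mainly in 1 breed. Within breeds, ENSBTAG00000017661 was at -2.27 (SE 0.56) in Nguni and -0.35 (SE 0.64) in Bonsmara. In the same order, ENSBTAG00000017528 was at 0.05 (SE 0.84) and -2.76 (SE 0.90), and ENSBTAG00000002858 at -0.18 (SE 0.47) and -1.635 (SE 0.56).

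The diets of Bonsmara did not overlap in 4 of the 7 members, and in 17.8% of all tested genes. ENSBTAG00000038439, ENSBTAG00000002858 and ENSBTAG00000017528 were lower on high energy in all 9 pairs of bulls, and ENSBTAG00000023823 was higher in all 9. In Nguni the diets overlapped in all 7 members, and 1.84% of all tested genes had diets that did not. The nearest to a separation there was ENSBTAG00000000905, lower on high energy in 14 of 15 pairs. With 3 bulls in a group these orders rest on few values, and they were not tested by themselves. The same bulls were used to choose the members by breed, so nothing is read from the counts of members beside the shares.

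By group means, ENSBTAG00000038439 ran from Nguni on high energy through Nguni on low energy and Bonsmara on high energy to Bonsmara on low energy; the 2 Nguni groups overlapped, and there were gaps between the breeds and between the 2 Bonsmara groups. ENSBTAG00000002858 had the reverse arrangement of breeds, with Bonsmara on high energy lowest, and its 2 Nguni groups overlapped throughout their range. For ENSBTAG00000000905 the order from the top was Bonsmara on high energy, Bonsmara on low energy, Nguni on low energy and Nguni on high energy, and each group overlapped the next. For ENSBTAG00000023823 it was Nguni on low energy, Nguni on high energy, Bonsmara on high energy and Bonsmara on low energy, with an overlap at each step but the last. For ENSBTAG00000017661 it was Nguni on low energy, Nguni on high energy, Bonsmara on low energy and Bonsmara on high energy, with an overlap at each step. For ENSBTAG00000017528 Bonsmara on low energy stood above the other 3 groups, whose highest stem was at 0.714 CPM, and for ENSBTAG00000006896 the same group was highest but reached down to 10.4 CPM, below B6 at 14.4 on high energy.

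The spread within stems set the members apart from each other. The share of log2 variance within groups that lay between stems was 0 for ENSBTAG00000038439 and ENSBTAG00000000905, 0.266 for ENSBTAG00000006896, 0.276 for ENSBTAG00000023823, 0.451 for ENSBTAG00000002858, 0.704 for ENSBTAG00000017528 and 0.827 for ENSBTAG00000017661. The median was 0.276 over the members and 0.421 over all tested genes. For the 2 genes at the top, the highest stems (N1 and N215, and B51) were high in all of their libraries. Library counts spread more than counting error in all 7, from 1.82 times (ENSBTAG00000017528) to 62.7 times (ENSBTAG00000023823) as chi-square per degree of freedom. This ratio of variances grows with the counts of a gene, so it does not rank the members by spread. ENSBTAG00000038439 had 24.3 with a log2 SD between libraries of 0.27, and ENSBTAG00000017528 had 1.82 with an SD of 0.60.

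**Figure D4:**
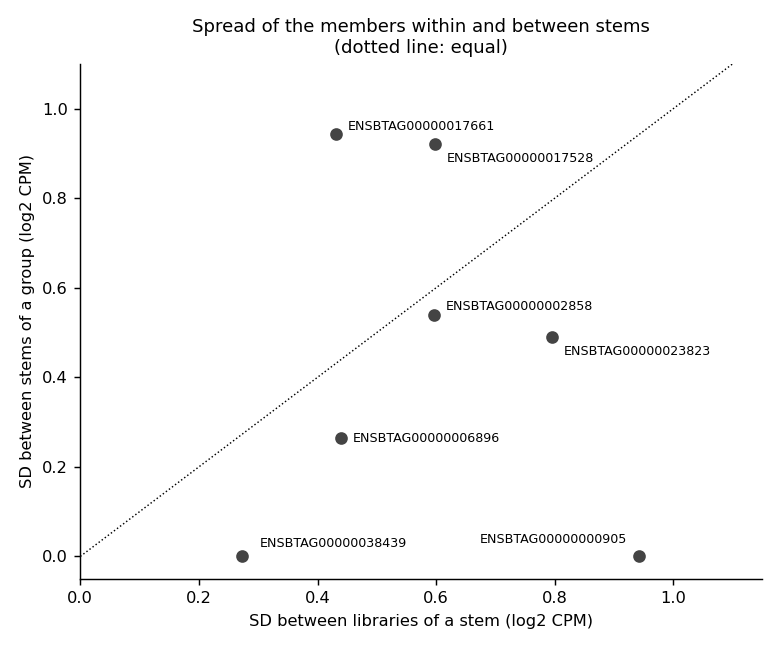
Estimated SD between stems of a group (vertical) against SD between libraries of a stem (horizontal), both in log2 CPM, with 1 point per gene and the dotted line where they are equal. ENSBTAG00000017661 and ENSBTAG00000017528 lie above the line, the other 5 below it, and ENSBTAG00000038439 and ENSBTAG00000000905 at 0 on the vertical axis.

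Within groups the members did not vary together as a set, though single pairs were correlated in either direction. Over the 14 stems, with group means removed, Pearson's r of log2 CPM for the 21 pairs of members ran from -0.828 to 0.534 with a median of -0.0808. The lowest was that of ENSBTAG00000023823 and ENSBTAG00000017661: among Nguni on low energy N33 was highest for the first and lowest for the second, and among Nguni on high energy N35 was. Both genes of a pair were measured in the same libraries, and the correlations are a description with no test.

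For each member the tested gene with the most similar pattern was found by Pearson's r of log2 CPM over the 14 stems, which includes the differences between groups. For ENSBTAG00000000905 it was ENSBTAG00000039246 (r = 0.931, Spearman's rho = 0.916), and for ENSBTAG00000023823 it was ENSBTAG00000019253 (r = 0.910, rho = 0.749). ENSBTAG00000002858 was most like ENSBTAG00000002922 (r = 0.899, rho = 0.881), and ENSBTAG00000017528 was most like ENSBTAG00000024081 (r = 0.891, rho = 0.798). ENSBTAG00000006896 was most like ENSBTAG00000003585 (r = 0.857, rho = 0.648), ENSBTAG00000038439 was most like ENSBTAG00000012544 (r = 0.844, rho = 0.890) and ENSBTAG00000017661 was most like ENSBTAG00000015569 (r = 0.838, rho = 0.635). With group means removed r ran from 0.382, for the partner of ENSBTAG00000038439, to 0.910, for that of ENSBTAG00000023823. Each partner is the best of all tested genes over 14 points, so a high r is no finding by itself.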

How the data were processed

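The values used are gene-level estimated counts, which the authors deposited in 4 tables without normalization. They are taken as estimated because the submitters' processing notes name Salmon, beside Trimmomatic, FastQC and DESeq2, with no version or role. Of build, annotation and strandedness, the sources used here give none. Rounding to whole numbers moved 0 values. Each of the 42 libraries stands in 2 tables with identical values and was taken once; 14 of the 56 labelled samples were not analysed here. Per the labels' protocols, Trizol was used for the RNA and a TruSeq kit for the libraries.

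The 3 libraries of a stem were summed, which weights them by depth (stems held 34456677 to 101757197 counts). Genes were filtered by filterByExpr (minimum count 10), which left 13219 genes with 99.97% of the counts, with TMM scaling. The main test was edgeR's robust quasi-likelihood test (version 4.0.16, under R 4.3.3), fitted to the 14 stems with 1 mean per group, which leaves 10 residual degrees of freedom; p-values were adjusted by Benjamini-Hochberg over all genes, with a threshold of 0.05. It was also run on simulated data, but the outcome is not given here, so its power with these group sizes is not stated. Library CPM were scaled by TMM over the 42 libraries, so they differ slightly in scale from stem CPM. Log2 CPM used a prior count of 2. The members and lists were chosen with earlier results of these data known. Besides the members, the 1 gene most like each was named. Alternatives were DESeq2 1.42.0, limma 3.58.1, other scalings and filters, the tables' placing of N1 and N11, leaving out 2 libraries, and leaving out each stem.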

Additional observations from a re-analysis of the deposited data

How the results depend on the processing

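The 4 counts of members called (breed on high energy, and diet in Bonsmara, in Nguni and averaged) stayed at 0 under all settings that were run, with a lowest adjusted p of 0.440, 0.0834, 0.110 and 0.198 in that order. The breeds' ranges over both diets did not overlap in 1 member, in 0 with plain library totals and in 0 without N008_3 and N215_2, and in 1 to 2 when each stem was left out, the second being ENSBTAG00000000905 without B126 or ENSBTAG00000002858 without B51. Of the log2 differences that turned sign, none of them called, those between diets in Nguni under the tables' placing of N1 and N11 were 0.23 for ENSBTAG00000002858, 0.74 for ENSBTAG00000017661, -0.048 for ENSBTAG00000006896 and -0.21 for ENSBTAG00000017528. ENSBTAG00000002858 was at 0.042 in limma voom on libraries with the stem as a random block, and ENSBTAG00000017528 at -0.71 in limma voom with quality weights. For diet averaged over breeds, the tables' placing gave 0.17 for ENSBTAG00000000905, -0.019 for ENSBTAG00000023823 and 0.19 for ENSBTAG00000017661. Quality weights gave 0.19 for ENSBTAG00000000905, and leaving out the 2 libraries gave -0.035 for ENSBTAG00000023823. Leaving out each stem gave ranges that cross 0 for breed on high energy in ENSBTAG00000006896 (-0.46 to 0.073). For diet in Nguni they were -0.22 to 0.0041 for ENSBTAG00000038439, -0.49 to 0.27 for ENSBTAG00000002858, -0.94 to 0.076 for ENSBTAG00000023823 and -0.39 to 0.82 for ENSBTAG00000017528. For diet averaged they were -0.36 to 0.12 for ENSBTAG00000000905 and -0.13 to 0.37 for ENSBTAG00000023823. Apart from the change of placing, the cause was not tested. Limma on libraries filtered out ENSBTAG00000000905 and ENSBTAG00000017528, and a fit of only the groups compared was not run for averaged diet, which needs all groups. No paired analysis was possible because summed stems carry no number shared between groups. Depth limits ENSBTAG00000000905 and ENSBTAG00000017528 most, with 1 count in the lowest stem of each.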
